A study of Saccharomyces cerevisiae with 30 samples.

Results

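The set described here held 110 budding yeast features with low levels in control cells. Each was at least 2-fold higher in all 5 acute perturbations of ribosome production. The features were selected on measured values. A feature named with a leading Y was a member if, in each of 5 tables, its control mean was under 200 normalized counts, its mean over the 4 libraries was at least 10, and R, defined as (treated mean + 1)/(control mean + 1), was at least 2. Of 7126 features per table, 6685 had such names, 522 passed the level limits in all 5 tables, and 116 of these also passed the fold limit. Removing 6 by name (5 sporulation or recombination genes whose names start with SPO, SPR or REC, and YHR054C) left the 110 members, while 406 low-level features did not pass the fold limit. The changes in those 5 comparisons are therefore given as a description, without tests.

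The study asked how yeast respond within minutes when ribosome assembly is disturbed. Each AID strain carried a degron on 1 processing factor in cells that express the plant adaptor OsTIR1, so that 100 µM auxin for 20 min depletes the tagged protein. LAS1-AID, RAT1-AID, RRP17-AID and RRP44-AID cells given auxin were compared with mock-treated cells of the same strain. The WT cells of the auxin experiment, compared in the same way, expressed OsTIR1 too but had no degron tag. In other experiments, WT cells of the BY4741 background (a haploid of mating type a) received 15 µg/ml diazaborine (DZA) or 0.1% DMSO vehicle for 15 or 45 min. Others received 1.5 mM diamide for 0 or 15 min. All cells grew to mid-log phase in rich YPD medium, and rRNA was removed before sequencing. Each auxin, mock, DZA and DMSO group had 2 libraries, A and B, grown on separate days (separate strain isolates for the auxin experiments), and each diamide group had 1. The markers of a mating type a haploid fitted the label, with control means of 14482 to 42869 for the pheromone receptor gene STE2 against 30.3 to 99.9 for STE3 of the opposite type. Of the pheromone genes of that type, MF(ALPHA)1 had a mean of 13.9 in RAT1-AID mock cells and 94.7 after auxin and R of 0.48 to 1.33 in the other selecting comparisons. MF(ALPHA)2 was at 17.6 and 17.6 in RAT1-AID, went from 15.2 to 101 in RRP44-AID, and had R of 2.05 in LAS1-AID and 2.62 and 1.71 at 15 and 45 min of DZA. The part of these markers in any result here was not tested.

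Rat1 is a nuclear 5′-exonuclease that trims rRNA and also removes RNA behind terminating polymerase. Rrp44 is the catalytic subunit of the exosome, which trims rRNA and degrades many short-lived nuclear transcripts, Las1 cuts the spacer between large subunit rRNAs, Rrp17 is another 5′-exonuclease, and diazaborine blocks the ATPase Drg1 that releases shuttling factors from cytoplasmic pre-60S particles. Yeast annotation also lists many open reading frames (ORFs) that are short, overlap verified genes and have no known product, and a group of genes, including those for meiosis and spore formation, that is kept nearly silent in haploid cells growing on glucose.

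The members were a mixture of such ORFs and a smaller number of characterized genes. The RefSeq annotation of the R64 genome contained 58 of the 110, of which 26 had a standard name and 32 had only a systematic one. The other 52 (47.3%) were not in that annotation, against 37.4% of the 406 other low-level features and 10.2% of all 6685 features. The members' median length was 435 bp (range 114 to 1958), against 566 bp for the other low-level features and 1259 bp for all. Of the members, 49 were under 400 bp. These are lengths of the features deposited with the diamide data. Of 6006 such features also in RefSeq, 1006 had the RefSeq start and end, while 38 of the 58 members in RefSeq did. The lengths of members and of all features are therefore not on an equal footing. The members were spread over all 16 chromosomes, with 2 to 15 per chromosome. Within 30 kb of a chromosome end lay 14 members (12.7%), against 15.5% of the other low-level features and 7.34% of all.

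Sequence identity matters for counting at this level, and the clearest case was a pair of members at separate maltose-gene loci. YGR291C (chrVII:1076283-1076504, minus strand) starts 66 bp from MAL12, and YBR298C-A (chrII:805035-805256, minus strand) starts 66 bp from MAL32, both of which encode maltases. The 2 ORFs, each of 222 bases, were identical at 218 positions (98.2%). They are shown with the 4 differing bases in capitals, from the R64 genome.
YGR291C: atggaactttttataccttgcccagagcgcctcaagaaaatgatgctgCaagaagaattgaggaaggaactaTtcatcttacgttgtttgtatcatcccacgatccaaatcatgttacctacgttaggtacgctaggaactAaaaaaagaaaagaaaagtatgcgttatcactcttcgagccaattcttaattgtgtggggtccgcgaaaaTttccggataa
YBR298C-A: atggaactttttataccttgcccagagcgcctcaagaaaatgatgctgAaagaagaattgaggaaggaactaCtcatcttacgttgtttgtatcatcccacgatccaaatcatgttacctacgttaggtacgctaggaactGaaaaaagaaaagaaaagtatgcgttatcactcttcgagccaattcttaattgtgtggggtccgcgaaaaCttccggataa
Reads that cover none of these positions fit both copies, and the values of the 2 features are uncertain to that extent. Of the 50-base windows in each of these 2 ORFs, 22.5% occurred elsewhere in the genome. Over all members, 102 had no 50-base window that occurs elsewhere in the genome. Only PAU10 and HXT6 had more than 50% of such windows repeated (86.3% and 90.3%), and HXT6 was singled out after its values were seen.

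Letters known to be bound by yeast regulators were searched in the 300 bases from 250 before to 50 after the first base of each ORF, on both strands. The words were AGGGG, the stress response element (STRE) read by Msn2 and Msn4, GAANNTTC and TTCNNGAA, paired units of the heat shock element (HSE) read by Hsf1, CACAAAA, the core of the middle sporulation element (MSE) read by Ndt80, GCCGCC, the core of the URS1 element of early meiotic genes, GGTGGCAAA, the proteasome element read by Rpn4, and TATAAA. The STRE was present in 32 of the 110 members (29.1%), against 20.0% of the other low-level features and 21.3% of all 6684 windows. The MSE core was present in 15 members (13.6%), against 8.87% and 7.51%. TTCNNGAA was present in 13.6% of members, 13.8% of other low-level features and 12.8% of all windows. GAANNTTC was present in 6.36%, 12.8% and 11.8%. The URS1 core was found for 8.18%, 10.3% and 5.21%, the proteasome element for 1 member, and TATAAA for 42.7%, 52.0% and 44.2%. The 2 HSE words can share bases, and these shares are descriptions that were not tested. Windows of the genes named for these elements are shown to give the spacing from the ORF. Capitals mark only the matches to the elements named for each gene. NDT80 (chrVIII:356322-356501) and GAS4 (chrXV:71171-71217) hold the MSE core, HED1 (chrIV:477709-477754) holds the URS1 core, RTC2 (chrII:536325-536361) holds an STRE, and ROQ1 (chrX:146172-146236) holds an STRE followed by TTCNNGAA. All are on the plus strand. The HED1 window also holds TTCNNGAA, left in lowercase, with its first base at -53 from the start of the ORF.
NDT80: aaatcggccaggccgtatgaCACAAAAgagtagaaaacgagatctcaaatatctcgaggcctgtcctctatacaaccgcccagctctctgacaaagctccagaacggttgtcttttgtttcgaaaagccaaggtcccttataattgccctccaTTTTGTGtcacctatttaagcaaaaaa
GAS4: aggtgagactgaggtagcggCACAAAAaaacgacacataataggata
HED1: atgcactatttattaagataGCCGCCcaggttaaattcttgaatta
RTC2: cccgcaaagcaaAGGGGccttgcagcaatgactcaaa
ROQ1: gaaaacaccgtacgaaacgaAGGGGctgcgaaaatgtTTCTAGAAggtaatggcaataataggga
The NDT80 window starts 239 bases before the ORF and carries the word on both strands. The GAS4, HED1 and RTC2 windows start 129, 88 and 250 bases before theirs, and the ROQ1 window starts 187 bases before.

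Depth decided how precisely such low features could be read. Where whole reads could be recovered from the normalized values (26 distinct libraries), the totals ran from 15014154 to 99585064 reads with a median of 32782749. In the control libraries of the 5 selecting comparisons a member had a median of 10 to 44 reads, and in the treated libraries a median of 34 to 216. All members together took 62.6 to 88.0 RPM (reads scaled to the same library total) in 8 of the 9 recovered control libraries of those comparisons and 358 to 774 RPM in the treated ones. The exception was RRP44-AID mock A, with 147 RPM. Without that library the median log2 R of the members in RRP44-AID was 2.08, against 2.14 with it. In the plot of RPM by library, no treated library of the 5 selecting comparisons came near any control library. The members were chosen as at least 2-fold higher in these same libraries, so that separation follows from the rule. Since RNA was taken from whole cultures, more cells that carry a transcript and more transcript per cell cannot be told apart.

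**Figure D1:**
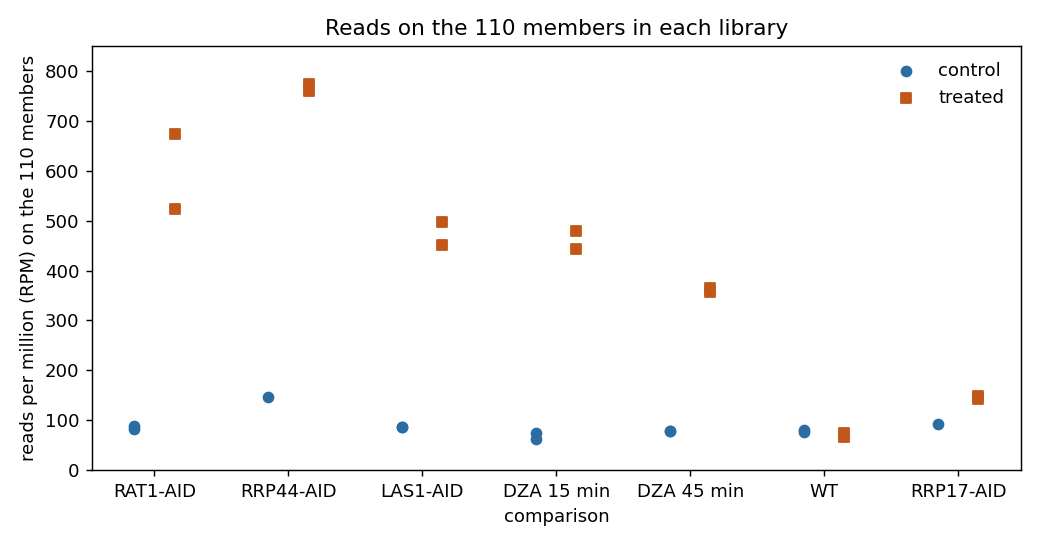
RPM summed over the 110 members in each library (vertical axis), for control (blue circles) and treated (orange squares) libraries of the 7 comparisons; RRP44-AID mock B is absent because its whole reads could not be recovered, and RRP17-AID has 1 distinct mock library. Treated libraries of the first 5 comparisons, which were used to choose the members, lie between 358 and 774. The RRP17-AID auxin libraries lie at 149 and 143 against 92.2 in the mock, and the WT libraries between 67.6 and 80.3.

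The size of the change differed between perturbations. The median R was 5.53 in RAT1-AID (log2 2.47, with 2.65 and 2.24 for library pairs A and B), 4.42 in RRP44-AID (log2 2.14, pairs 2.19 and 2.09) and 4.18 in LAS1-AID (log2 2.06, pairs 2.07 and 2.03). With DZA it was 4.82 at 15 min (log2 2.27, pairs 2.49 and 2.39) and 3.60 at 45 min (log2 1.85, pairs 1.81 and 1.92). By the rule all 110 members had R of at least 2 in each comparison, and the shares of all features tested at that fold were 11.7% (RAT1-AID), 9.43% (RRP44-AID), 6.8% (LAS1-AID), 9.95% (15 min of DZA) and 11.2% (45 min of DZA). In all 110 members both treated libraries were also above both control libraries in each of the 5, where the background over all features was 29.3%, 32.4%, 33.9%, 28.5% and 37.1% in the same order. The other 406 low-level features had median R of 1.56, 1.54, 1.34, 1.46 and 1.41, again in that order, while the median of all features tested was within 0.04 of 0 on the log2 scale in every comparison. The level limit acted on the controls of these same comparisons, so a feature that rose past 200 stayed in and one that fell from above 200 did not, which favors higher values among all low-level features. Of the 522 low-level features, 155 reached 2-fold in none of the 5 comparisons, 99 in 1, 47 in 2, 47 in 3, 58 in 4 and 116 in all 5. Between 3 and 10 of the 522 were at least 2-fold lower in each of the 5, under the same limit.

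**Figure D2:**
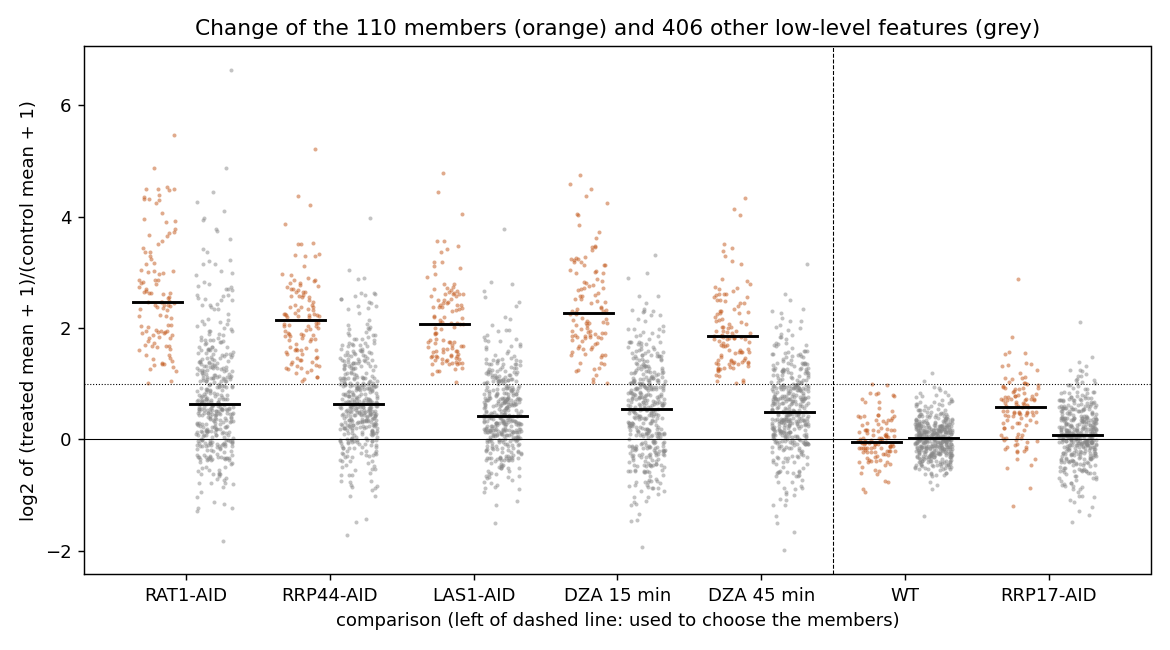
Log2 R (vertical axis) of each of the 110 members (orange) and the 406 other low-level features (grey) in 7 comparisons, with black bars at the medians, a solid line at 0 and a dotted line at 2-fold. Left of the dashed line the members lie above 2-fold because the rule chose them so, and to its right the members' medians were -0.05 in WT and 0.58 in RRP17-AID.

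Members did not keep the same rank across perturbations. The highest R of a member was in RAT1-AID for 42, at 15 min of DZA for 30, at 45 min for 15, in RRP44-AID for 13 and in LAS1-AID for 10. The lowest was at 45 min of DZA for 49 members and in RAT1-AID for 6. Within the DZA series, 75 members had a higher R at 15 than at 45 min. Across the 110 members, Pearson's r between log2 R values ranged from 0.23 (RRP44-AID and 45 min of DZA) to 0.66 (LAS1-AID and 15 min of DZA), and it was 0.47 between the 2 DZA times. All points lie above the same threshold in both comparisons, so these are descriptions of a truncated range.

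The members at the edge of the rule show where it fell. YOR072W (lowest R 2.01), YGR176W (2.02) and YEL020C-B (2.02) were just inside, and GAT4, YAL063C-A and YLR374C were just outside with a lowest R of 1.98 each. At the other end, 10 members had a lowest R of 5.60 or more. They were YGR291C (9.79), BAG7 (8.84), YFL040W (7.37), YBR298C-A (6.89), YHL041W (6.84), YER006C-A (6.47), YOR050C (6.18), YDL114W (6.06), YHL005C (5.65) and YNR042W (5.60). BAG7 was the only one of the 10 with a standard name.

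**Figure D3:**
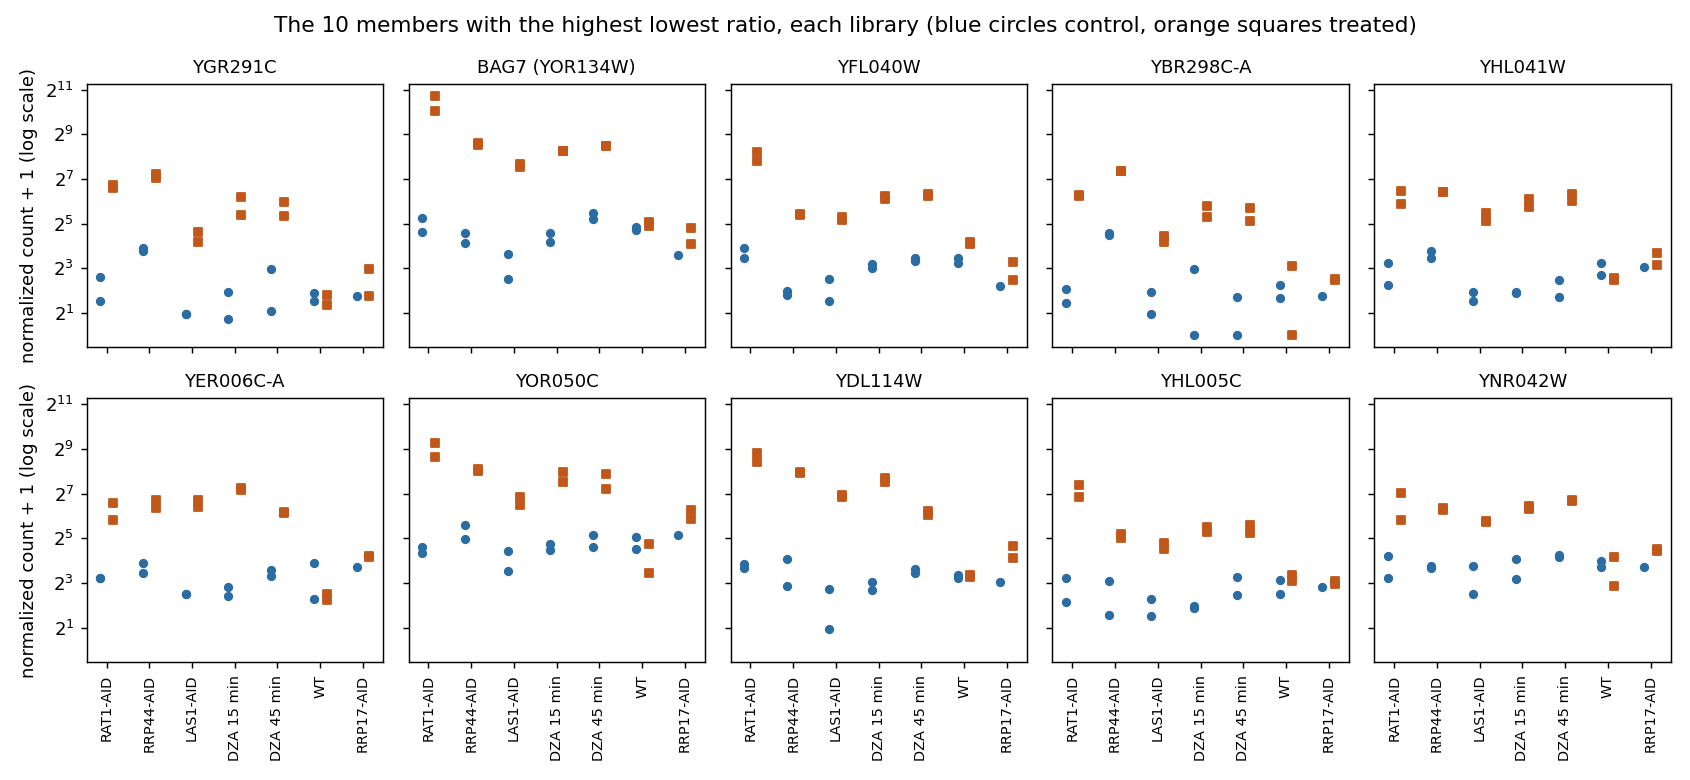
Normalized count + 1 on a log axis (vertical) in every library of 7 comparisons for the 10 members whose lowest R was highest, with control libraries as blue circles and treated libraries as orange squares. The treated squares are above the control circles in the 5 selecting comparisons in every panel, and they lie among or near the circles in WT.

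BAG7 (YOR134W, chrXV:578564-579793) encodes a GTPase-activating protein for Rho1, a regulator of cell wall synthesis, and it is on the study's list of Msn2/4 targets. Its normalized counts were 23.8 and 37.4 in RAT1-AID mock cells and 1703 and 1069 after auxin, the largest R among members (43.9). In RRP44-AID they went from 16.5 and 22.8 to 397 and 364, and in LAS1-AID from 4.76 and 11.3 to 184 and 205. At 15 min they were 22.9 and 17.2 with DMSO and 301 and 301 with DZA, and at 45 min 36.6 and 43.2 against 360.0 and 361. The groups were far apart in all 5 comparisons, whereas WT mock cells had 28.2 and 25.3 and WT auxin cells 28.6 and 32.4.

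YDL114W (chrIV:255604-256530) has no standard name, and its changes were of similar size in 4 of the 5 comparisons. In RAT1-AID it went from 11.9 and 13.3 to 453 and 341, in RRP44-AID from 6.35 and 15.9 to 244 and 252, and in LAS1-AID from 0.953 and 5.67 to 113 and 123. It went from 5.4 and 7.18 to 184 and 206 at 15 min of DZA (R 26.8) but only to 73.4 and 65.3, from 9.87 and 11.4, at 45 min (R 6.06). The short ORF YDL114W-A, 555 bp upstream on the same strand and wholly opposite IWR1, was a member too.

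The near-copies at the maltose loci were alike in some comparisons and apart in others. YGR291C went from 5.10 and 1.90 to 96.1 and 104 in RAT1-AID, and YBR298C-A from 1.70 and 3.17 to 77.6 and 74.6. Both started higher in RRP44-AID mock cells, at 14 and 12.9 for YGR291C and 22.9 and 21.8 for YBR298C-A, and reached 132 and 149, and 163 and 163. With DZA, YGR291C had R of 20.6 at 15 min and 10.4 at 45 min, and YBR298C-A had 10.9 and 20.0. Few reads stand behind the control values. For YGR291C, LAS1-AID had 2 mock reads against 40 after auxin, and the pooled ratio of 22.1 had an exact 95% interval of 5.73 to 189. The 15 min DMSO libraries held 3 reads against 107 with DZA, a ratio of 37.4 with an interval of 12.5 to 184. These intervals cover counting error only.

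Per kilobase of coding length, the highest level as the mean over the 5 treated groups was that of YBR099C (3383 normalized counts per kb), followed by ROQ1 (1900.0), YOR102W (1173), YGR146C-A (1150.4) and YPR059C (1013). The deposited features of ROQ1 and YGR146C-A were longer than their RefSeq ORFs, and per kb of feature they stood at 1032 and 595. YGR146C-A also overlapped ECL1 on the same strand over 16% of its feature, and its values went from 22.3 and 21.5 to 214 and 214 at 15 min of DZA and from 55.9 and 56.5 to 153 and 174 in RRP44-AID. YBR099C (chrII:442926-443276, minus strand) lies wholly opposite MMS4, and its nearest upstream feature on its own strand, 508 bp away, is FES1, an Hsf1 target that encodes an Hsp70 exchange factor. YBR099C went from 162 and 73.5 to 1799 and 1769 in RAT1-AID and from 129.5 and 69.0 to 1589 and 2901 at 15 min of DZA. At 45 min the 2 DMSO libraries held 110.3 and 216 and the DZA libraries 491 and 835, which gave its smallest R, 4.05. The median log2 R over the 5 comparisons was 3.53 for YBR099C, 1.19 for FES1 and 0.12 for MMS4, and the part of either neighbor in the value of YBR099C was not tested.

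ROQ1 (YJL144W), which encodes a regulator of the ubiquitin ligase Ubr1 in stress-induced protein degradation, was high in its control groups for this set. At 15 min it had 143 and 83.3 normalized counts with DMSO and 1221 and 858 with DZA, and at 45 min 188 and 93.2 against 999.5 and 659.9. The AID strains showed smaller ratios, from 4.18 in RRP44-AID (49.6 and 78.3 to 290.2 and 251) to 5.31 in LAS1-AID (39.1 and 86.9 to 315 and 362). WT cells had 121 and 90.8 without auxin and 87.1 and 72.6 with it.

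Most members, 95 of the 110, were on none of the lists of known function. The meiosis and sporulation list held 9 of the other 15. Of its 59 genes, 21 passed the level limits and 9 (42.9% of the 21) were members, while 21.1% of all 522 low-level features were. The 5 dropped genes named SPO, SPR or REC were not on this list, and the lists were chosen with results of these data known. The whole list of 59 had a median log2 change of 0.76 over the 5 comparisons, and 14 of its genes (23.7%) reached 2-fold in all 5, against 3.61% of all 6685 features. The list of 41 Hsf1 targets had a median of 0.89, and 12 of its genes (29.3%) did so. Of 212 Msn2/4 targets, 19 were low-level and 2 were members (BAG7 and RTC2). Of 48 genes for carbon source use, 18 were low-level and 2 were members (the hexose transporter genes HXT14 and HXT17). The nitrogen and vitamin list gave BIO5 (1 of 14 low-level genes), which encodes a transporter for a biotin precursor, and the subtelomeric families gave PAU10 (1 of 11), a seripauperin gene. None of the 41 Hsf1 targets, 23 Hac1-dependent genes of the unfolded protein response, 186 ribosome biogenesis genes, 135 ribosomal protein genes, 27 proteasome genes, 36 mating genes or 30 metal uptake genes was a member, and at most 4 genes of any of these lists passed the level limits.

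NDT80 encodes the transcription factor that drives middle meiosis and exit from pachytene. Its normalized counts went from 131 and 144 to 1318 and 1175 in RAT1-AID, from 105 and 119.9 to 472 and 566 in RRP44-AID, and from 83.8 and 58.6 to 363 and 402 in LAS1-AID. With DZA they were 618 and 603 at 15 min, against 111 and 57.5 with DMSO, and 812 and 873 at 45 min, against 156 and 118. Its control levels were among the highest of the set, and its ratios (4.58 to 8.99) were above the median of the members in all 5 comparisons.

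DIT2, which encodes an enzyme that makes dityrosine for the spore wall, went from 73.7 and 76.3 to 587 and 540.1 in RRP44-AID and from 41.2 and 48.8 to 425 and 455 at 15 min of DZA. GAS4, a glucan-remodeling enzyme of the spore wall, went from 51.0 and 65.3 to 1072 and 751 in RAT1-AID (R 15.4) and had its lowest R, 3.61, at 45 min of DZA. HED1, a gene of the meiosis list, went from 34 and 30.4 to 699.6 and 624 in RAT1-AID (R 19.9), and its R in the other 4 comparisons was 3.64 to 5.04. RAT1-AID thus held the largest R for GAS4, HED1 and NDT80 but not for DIT2, whose largest was 9.58 at 15 min of DZA. DIT1, the divergent neighbor of DIT2, 848 bp away and singled out after its values were seen, had R between 2.41 and 8.85.

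The chaperone genes that the study followed give a scale for these changes. SSA4, an Hsp70 gene, had R of 2.53 when Rat1 was depleted, 3.96 for Rrp44 and 8.04 for Las1, and 13.3 and 8.08 at 15 and 45 min of DZA. HSP82, an Hsp90 gene, had 3.36, 3.99, 4.48, 8.59 and 7.08 in the same order. Both were higher with DZA than in RAT1-AID, whereas the members' median over both libraries was highest in RAT1-AID. For the members that order held in pair A (log2 2.65, against 2.49 at 15 min of DZA). It did not hold in pair B (2.24 against 2.39). HSP12, a Msn2/4 target, had R of 0.41 to 1.15.

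Neighbors were compared because most members overlap or adjoin other features. On the coordinates of the deposited features, 58 members (52.7%) overlapped a feature on the other strand, against 45.3% of the other low-level features and 40.1% of all. Of these members, 21 lay wholly inside it (19.1% of all members, against 13.3% and 3.95%). Features with bounds other than those of the RefSeq gene were rarer among members than over all features, which limits the comparison of these shares. The study's methods name a strand-specific kit for the libraries of the auxin experiments and name no kit for those of DZA. The strand setting of the counting was not given in the sources used here. The overlapping features were usually more abundant, with a median of 1409 normalized counts per kb in WT mock cells against 42.5 for their members, and were above the member in 53 of 58 cases. Their own median log2 R over the 5 comparisons was -0.12 (range -0.74 to 2.68). They were higher in 21 cases and lower in 37, and 9 (15.5%) were at least 2-fold higher, 4 of them members themselves. That share was 8.70% for the overlapping features of the other low-level features and 10.1% over all features. Members with and without such an overlap had median R of 5.57 and 5.41 in RAT1-AID, 4.69 and 4.08 in RRP44-AID, and 3.88 and 4.24 in LAS1-AID. With DZA they had 4.90 and 4.63 at 15 min and 3.58 and 3.60 at 45 min. The 21 members wholly inside such a feature had 5.60, 4.99, 3.34, 4.13 and 2.95 in the same order.

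**Figure D4:**
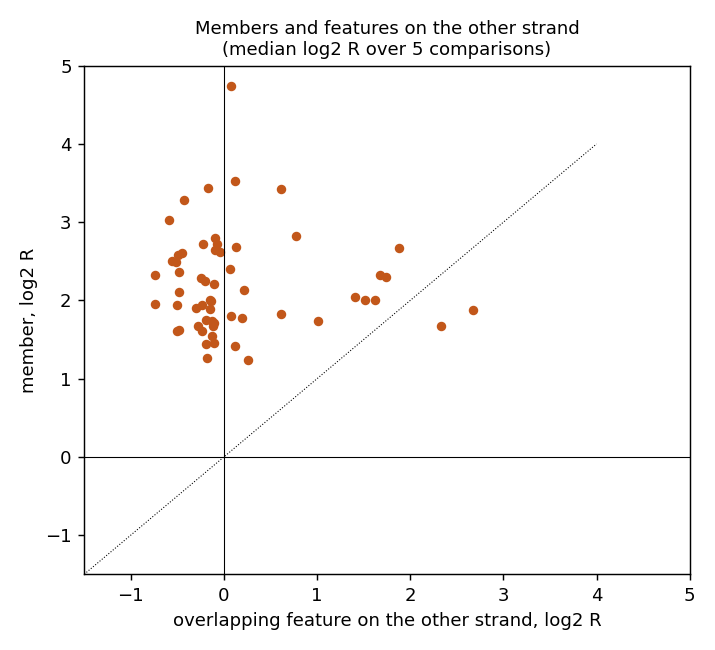
Median log2 R over the 5 selecting comparisons for the 58 members that overlap a feature on the other strand (vertical axis) against that of the overlapping feature (horizontal axis), with a dotted line of equality. The members start at 1.24 by selection, while 37 of the overlapping features lie below 0 and 9 lie at 1 or above.

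On the same strand, 33 members had another feature ending within 500 bp upstream. The median log2 R of those upstream features was -0.14, and 3 of the 33 (9.09%) were at least 2-fold higher, against 7.92% of the 2400 such upstream features over the genome. The members with a near upstream feature had a median R of 6.07 in RAT1-AID and 3.03 at 45 min of DZA, and the other 77 had 5.35 and 3.83. None of the 33 upstream features was an Hsf1 target, where 16 of the 2400 over the genome were. Among the other low-level features it was 0 of 82. Such targets are too rare for this count to say anything about the members. FES1, 508 bp upstream of YBR099C, lay just outside the 500 bp limit. Adjacent members formed 7 pairs with 13 members in all, 3 of them in tandem, 3 divergent and 1 convergent, and 3 of the pairs overlapped. Among them were YOL163W and YOL162W, whose median log2 R was 3.14 and 3.30, MND1 and YGL182C (1.90 and 2.08), and REG2 and YBR051W on opposite strands (1.67 and 2.33).

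Median ratios were also compared between ORF classes, without a test. The 26 members with a standard name had a median R of 8.0 in RAT1-AID, the 32 with a systematic name only had 5.19, and the 52 outside RefSeq had 5.47. At 15 min of DZA the order was the other way, with 4.32, 4.91 and 4.93. The named members were longer (median 1214 bp, against 444 and 372.5 bp) and had higher control levels (33.5 normalized counts as the median of the mean over the 5 control groups, against 22.2 and 18.7).

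The comparisons that the rule did not use were auxin in WT cells, depletion of Rrp17 and diamide. In WT cells no member passed the test for a response to auxin. The members' median log2 R was -0.05 (pairs 0.02 and -0.07), 50 were higher and 60 lower, and none reached 2-fold, where the background over 6295 features was 0.334%. The 92 members with a mean of at least 10 were tested with limma over all 6295 features, and 0 members and 0 other features were called higher at an adjusted p under 0.05 (background 0%). At an unadjusted p under 0.05 there were 48 features, 1 of them a member. With a block for the replicate letter, limma gave 270 such features, among them 3 members that were higher and 1 that was lower. The main test did not remove differences between replicates A and B, so its lack of calls is weak evidence of no change. DESeq2 called 2 features and edgeR 0, none of them a member. The largest change was that of YEL020C-B, from 12.2 and 8.42 to 27.4 and 15.4 normalized counts (fitted log2 change 0.96, SE 0.51, limma adjusted p 1.0), followed by YOR277C (41.5 and 26.2 to 99.5 and 35.5). YER006C-A (R 0.52) and YOR139C (R 0.54) were lowest and did not reach the mean for testing. In both, 1 of the 2 auxin libraries lay between the mock libraries.

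Depletion of Rrp17 left most members above the mock, with smaller ratios than those that the rule required elsewhere. The study reported that the AID tag already impaired Rrp17, since pre-rRNA built up without auxin and growth was reduced. The RRP17-AID mock cells were thus not an undisturbed baseline, and the part of this in the ratios was not tested. The 2 deposited RRP17-AID mock columns were identical in all 7126 features and were counted as 1 library, so no test was made. The members' median R was 1.49 (log2 0.58, or 0.55 and 0.56 with either auxin library alone), against 0.08 on the log2 scale for the other low-level features and 0.00 for all features tested. Of the 110 members, 91 were higher and 19 lower, and 18 (16.4%) had R of at least 2, where the background was 0.787% of 6100 features and the other low-level features gave 16 of 406 (3.94%). In 79 members (71.8%) both auxin libraries were above the mock, against 38.3% of all features and 42.4% of the other low-level features. All of these values share the 1 mock library, and its part in the result was not tested.

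Single members in RRP17-AID rest on few reads. YDL162C had the highest R, 7.37, with 1.22 normalized counts in the mock and 12.6 and 18.2 after auxin. Its 1 mock read against 42 gave a pooled ratio of 13.3 with an exact 95% interval of 2.26 to 538. YMR254C was next, at 1.22 against 5.71 and 8.22, and its interval of 0.957 to 250 included 1. YGL118C was the lowest, at 15.9 against 5.71 and 7.05 (R 0.44), followed by YEL020C-B, at 22.0 against 12.6 and 10.6 (R 0.55). Of the members with more reads, YBR099C had 126 against 321 and 213, GAS4 30.6 against 63.9 and 61.7, NDT80 119.9 against 202 and 177, and DIT2 57.5 against 119.8 and 99.9. In these 4 both auxin libraries were above the mock. In BAG7 the values were 11.0 against 16 and 27.0.

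Diamide, which oxidizes thiols, was measured in 1 library before and 1 library after 15 min of treatment, so the values compare those libraries only and carry no test. These libraries were shallower, with 4613828 and 5045070 reads on features, and 36 and 21 members had no read at all. Together the members took 698 reads before and 1419 after, or 151 and 281 RPM. YNL042W-B alone held 192 and 240 of these reads, and YBR090C held 104 and 293. The study built the diamide libraries with a different protocol, so these RPM cannot be set against those of the other experiments. Only 35 members had a mean of at least 1 RPKM. Their median log2 ratio was 0.54, against 0.32 for the 220 other low-level features at that level and -0.08 for all 5760, and 13 were at least 2-fold higher and 5 at least 2-fold lower. The background at 2-fold higher was 8.37%, and 65 of the 220 other low-level features passed. At least 2-fold lower were 520 of all 5760 features and 21 of the 220. Because a feature this low can pass the level limit through the library in which it is high, the count of 13 is not support for a change.

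Among the 35 members with a mean of at least 1 RPKM, the largest ratios were those of REG2 and ATO2. Members below that mean are not ranked here, since several had no read before diamide. ATO2, which encodes a putative ammonium transporter of the plasma membrane, had 2.91 RPKM (22 reads) before and 26.9 (243 reads) after diamide. That is a ratio of 10.1 per feature read with an exact 95% interval of 6.52 to 16.4 for counting error. REG2, a regulatory subunit of the phosphatase Glc7 in glucose repression, had 0.24 RPKM (2 reads) and 2.96 (30 reads), a ratio of 13.7 with an interval of 3.48 to 118, and it passed the level limit only through the library after diamide. At the other end, YDL114W-A and YEL020C-B had 2 and 3 reads before diamide and 0 after, too few for a ratio. In the selecting comparisons ATO2 had R from 4.35 to 7.26, REG2 from 2.31 to 4.59. In WT, ATO2 had 51.4 and 58.0 normalized counts in mock cells and 65.9 and 57.1 with auxin. In RRP17-AID it had 33.0 in the mock and 47.9 and 53.5 after auxin.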

How the data were processed

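For the auxin and DZA experiments, Cutadapt and PRINSEQ served the authors for read trimming and filtering, TopHat 2.1.0 for alignment and HTSeq for counting on the Ensembl annotation, and the counts were divided by the DESeq2 size factors of each table. The deposited values are therefore a normalized signal per feature and library. The submitters' processing notes name the builds R64 and sacCer3. For diamide the authors deposited RPKM with feature coordinates. Fold changes and p-values in the deposited tables were not used.

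Whole reads (100% of values within 0.1 of a whole number) were recovered in 26 distinct libraries and gave the depths. They could not be recovered for RRP44-AID mock B. Ratios used a pseudocount of 1 normalized count or 0.1 RPKM, which understates the change of low features. A mean of at least 10 normalized counts or 1 RPKM was required over all features. Auxin in WT was tested with limma 3.58.1 (trend, R 4.3.3) on log2 values, with Benjamini-Hochberg adjustment over all features tested, two-sided. edgeR 4.0.16 and DESeq2 1.42.0 on recovered reads were alternatives. The limma test was checked on simulated data that held no difference between replicate days, with changes placed among all features tested. That check was not made separately for features as low as the members.

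Replicates A and B were grown on separate days per the labels, and the letter was taken to mark the day, which the labels do not state. Deviations of same-letter WT libraries correlated at 0.45. The p-values measure the spread between these libraries.

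All 6006 deposited features found in RefSeq R64 were on the same chromosome, and 5839 held the whole RefSeq gene. Sequences are from RefSeq R64. Promoter windows start from the RefSeq ORF, or from the deposited feature where RefSeq had none. The members and all gene lists were chosen with earlier results of these data known. Named genes are the 10 members with the highest lowest R, the 5 with the highest treated level per kb of coding length, 3 on either side of the threshold, 2 at either end of each comparison outside the rule, and up to 4 per list by lowest R, with SSA4, HSP82 and HSP12 for scale. Members named for their neighbors or position (YDL114W-A, YOL163W, YOL162W, MND1, YGL182C, YBR051W) were chosen after their values were seen.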

Additional observations from a re-analysis of the deposited data

How the results depend on the processing

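The number of members depends on the rule: it was 180 at R of at least 1.5, 43 at R of at least 3 and 47 at a 4-column mean of at least 30, and leaving out single libraries gave 89 (without LAS1-AID auxin A) to 122. Requiring R of at least 2 in both same-letter pairs (a replicate block) kept 81 of the 110. In WT, 0 members were called in any alternative, the replicate block included, which called 8 features. The WT median was -0.04 among tested members, and -0.11 to 0.0088 without single libraries. Without auxin B, 24 features and 0 members were called. In the selecting comparisons a pseudocount of 10 lowered the median log2 R to 2.06 (RAT1-AID), 1.70 (RRP44-AID), 1.34 (LAS1-AID), and 1.75 and 1.53 (15 and 45 min of DZA). Without single libraries it was 2.01 to 2.08 in LAS1-AID, 2.24 to 2.64 in RAT1-AID, 2.08 to 2.21 in RRP44-AID, 2.18 to 2.47 at 15 min and 1.8 to 1.90 at 45 min. No paired analysis was possible for RRP17-AID and diamide because each had 1 control library. In RRP17-AID the median was 0.59 at a pseudocount of 0.1, 0.38 at 10 (with 5 members at 2-fold), 0.56 with median-centring, 0.58 with TMM scaling and 0.55 to 0.56 with single auxin libraries, which left 19 to 24 members at 2-fold. In diamide the median was 0.55 and 0.42 at pseudocounts of 0.01 and 1 RPKM, 0.62 after median-centring and 0.37 with no filter, which took the 2-fold count to 41. Depth limits single members, which had a median of 10 to 44 reads in control libraries of the selecting comparisons. The cause of these shifts was not tested.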
